A study of Homo sapiens with 6 samples.

Results

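The expression of 10 genes of iron uptake, storage and ferritin turnover was examined by RNA-Seq in C4-2B prostate cancer cells. The genes, TFRC, TFR2, STEAP3, FTH1, FTL, NCOA4, HMOX1, ACO1, IREB2 and HAMP, were taken by symbol from the 58024 genes of the processed table, and all 10 were found. C4-2B is an established androgen-refractory line derived from LNCaP cells through xenografts in castrated nude mice. C4-2B parental cells, with 3 libraries, were compared with enzalutamide resistant C4-2B cells, also with 3 libraries, which the labels number from 0 to 2 in each group. Enzalutamide is an antiandrogen used against prostate cancer. The resistant cells had been passaged in rising concentrations from 1 to 20 µM enzalutamide for 6 months or longer, and were then kept in 5 µM. The surviving cells were pooled, so that the resistant line is a single selected population. The parental cells were passaged in parallel in the vehicle, dimethyl sulfoxide, given in the labels as 1%. This is above the limit that the authors' methods state for the vehicle, and which of them applied was not settled. Both were grown in RPMI medium with fetal bovine serum. RNA was extracted after exposure to 10 µM enzalutamide, and the wording does not settle whether this held for the parental cells as well. The labels do not say that the libraries of a group came from separate cultures, so that p values measure the spread between these libraries, which may be technical.

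Most cells take up iron bound to transferrin, which is captured by the transferrin receptor, internalized, and released in the endosome after reduction by a STEAP ferrireductase. Iron that is not used at once is stored in ferritin, a hollow shell built from heavy (FTH1) and light (FTL) subunits, and is recovered when the receptor NCOA4 carries ferritin to the lysosome. The iron regulatory proteins, encoded by ACO1 and IREB2, bind hairpins called iron-responsive elements in mRNAs. When iron is scarce they stabilize the TFRC mRNA and block translation of the ferritin mRNAs, a control of translation that mRNA levels do not record.

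Expression was given as FPKM (fragments mapped to a gene, scaled to the transcript's length and the library's depth), which allows levels of different genes to be set side by side. The depth, estimated from the steps between low values, was between 13400000 and 20600000 reads per library, and a single read gives a gene of 2000 bases 0.0269 to 0.0414 FPKM. All 9 luminal prostate markers were at 1 FPKM or more in every library, while their summed level was 4146 to 4910 FPKM in the parental and 1171 to 1251 FPKM in the resistant libraries. For the comparison, log2(FPKM + 0.1) was fitted with limma over 24468 genes. Of these genes, 44.4% passed a Benjamini-Hochberg adjusted p of 0.05, 22.1% as higher and 22.3% as lower in the resistant cells. Among the 10 iron genes, 7 passed, 3 as higher and 4 as lower, and the median log2 fold change was −0.13 against −0.05 over all genes tested. With so many genes called, the count for a list of 10 genes says little by itself, and the values of the single genes are given in the following. The resistant and parental values did not overlap for 8 of the 10 genes, 4 higher and 4 lower, as for 54.8% of all genes tested, 26.6% higher and 28.1% lower.

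**Figure D1:**
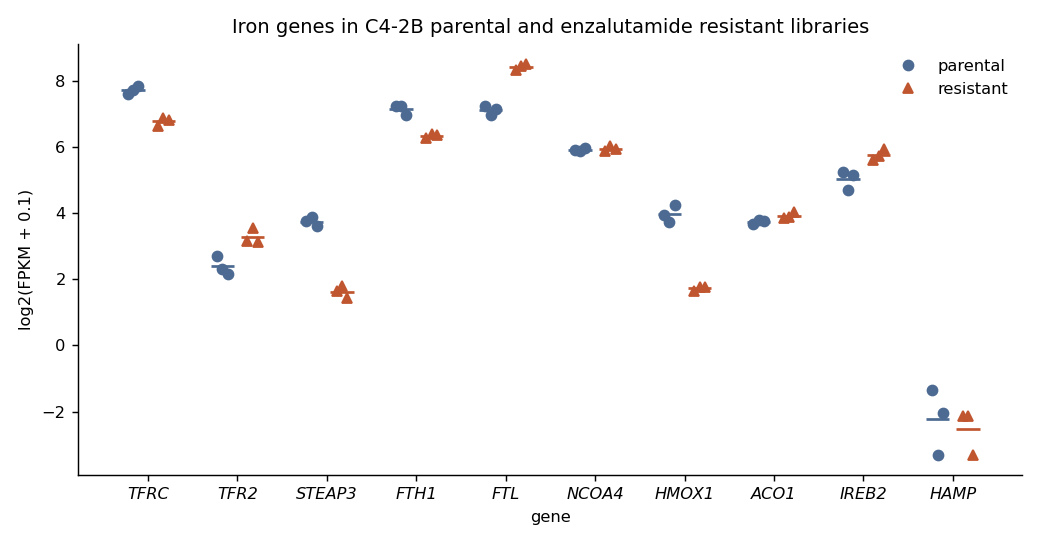
Levels of the 10 iron genes, as log2(FPKM + 0.1) on the vertical axis, in the 3 parental (blue circles) and 3 resistant (orange triangles) libraries. Horizontal lines are group means. The groups are separate for 8 genes and overlap for NCOA4 and HAMP, and FTH1 and FTL start from a like level in the parental libraries and part in the resistant ones.

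The hairpins that tie several of these mRNAs to the iron regulatory proteins are shown first, since the genes that carry them did not move together. The motif CNNNNNCAGTGN, with the 5 bases before and the 5 bases after the loop able to pair (G with T allowed), was searched on the transcript strand in the untranslated regions (UTRs) of 19688 canonical protein-coding transcripts of GENCODE v44 on GRCh38. It was found in the 5′ UTR of 0.0965% and the 3′ UTR of 0.615% of them. Among the 10 iron genes it was present in FTH1, FTL and TFRC. Windows of 29 bases are given 5′ to 3′ in DNA letters, with the first bases of the loop in capitals. FTH1 carries the motif in its 5′ UTR at chr11:61967574-61967602 (minus strand), and FTL in its 5′ UTR at chr19:48965335-48965363 (plus strand). TFRC carries it 4 times in its 3′ UTR, of which the first, at chr3:196050979-196051007, and the last, at chr3:196050463-196050491 (minus strand), are printed. SLC40A1, the iron exporter, carries it in its 5′ UTR at chr2:189580661-189580689 (minus strand).
FTH1: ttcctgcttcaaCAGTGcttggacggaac
FTL: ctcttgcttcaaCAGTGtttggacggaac
TFRC, first: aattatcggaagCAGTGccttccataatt
TFRC, last: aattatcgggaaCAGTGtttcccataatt
SLC40A1: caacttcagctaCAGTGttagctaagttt
The windows of FTH1 and FTL share 26 of 29 bases. A match of letters is a description and does not show binding.

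TFRC, the transferrin receptor that brings most iron into dividing cells, fell in the resistant cells. It lies on chromosome 3 (GRCh38, 196012511 to 196082153) and was at 193, 210 and 230 FPKM in the parental and at 100.2, 118 and 112 FPKM in the resistant libraries. Every resistant value lay below every parental value, and the mean fell from 211 ± 18.5 to 110.2 ± 9.17 FPKM (SD, n = 3 each). The log2 fold change was −0.94 (SE 0.10, adjusted p = 4.76e-04 by limma and Benjamini-Hochberg).

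TFR2, the second transferrin receptor, is known as an iron sensor of the liver and of erythroid precursors. On chromosome 7 (100620416 to 100642779), it was at 6.43, 4.92 and 4.33 FPKM in the parental and at 8.91, 11.6 and 8.56 FPKM in the resistant libraries. It rose where TFRC fell, with a log2 fold change of 0.88 (SE 0.20, adjusted p = 0.0129 by limma and Benjamini-Hochberg). All 3 resistant libraries were above the parental ones, and TFR2 stayed far below TFRC in both groups, at a mean of 9.69 FPKM in the resistant cells.

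STEAP3, a ferrireductase that reduces iron in the transferrin endosome, also fell. On chromosome 2 (119223831 to 119265652), its values were 13.4, 14.6 and 12.1 FPKM in the parental and 3.03, 3.36 and 2.62 FPKM in the resistant libraries. The groups were well apart, with means of 13.4 ± 1.23 and 3.004 ± 0.371 FPKM (SD, n = 3 each) and a log2 fold change of −2.12 (SE 0.15, adjusted p = 1.21e-04 by limma and Benjamini-Hochberg). Within a library, where the scaling between libraries has no part, the ratio of STEAP3 to TFRC was 0.0694, 0.0692 and 0.0525 in the parental and 0.0302, 0.0284 and 0.0234 in the resistant libraries. The log2 ratio was thus lower by a difference of −1.18 without overlap. For this and the other ratios, 5 in all, the exact two-sided permutation test of 3 libraries against 3 cannot go below p = 0.1, which it reached here (0.125 after Benjamini-Hochberg adjustment over the 5 ratios).

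The ferritin subunits went in opposite directions. FTH1, whose product oxidizes iron for entry into the shell, lies on chromosome 11 (61959718 to 61967634) and was at 150.1, 152 and 125 FPKM in the parental and at 77.9, 84.4 and 82.1 FPKM in the resistant libraries. All resistant values were below the parental ones, and the mean fell from 143 ± 14.8 to 81.5 ± 3.30 FPKM (SD, n = 3 each). The log2 fold change was −0.80 (SE 0.09, adjusted p = 8.04e-04 by limma and Benjamini-Hochberg).

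FTL, whose product has no oxidase site and aids formation of the iron core, lies on chromosome 19 (48965309 to 48966879). It was at 150.01, 125 and 142 FPKM in the parental and at 319, 349 and 369 FPKM in the resistant libraries. The groups were again apart, with means of 139 ± 12.7 and 346 ± 25.1 FPKM (SD, n = 3 each) and a log2 fold change of 1.32 (SE 0.09, adjusted p = 1.14e-04 by limma and Benjamini-Hochberg).

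In the parental libraries both subunits were therefore at a like level, and in the resistant libraries the light subunit prevailed. The ratio of FTL to FTH1 was 0.9997, 0.823 and 1.13 in parental cells, against 4.10, 4.13 and 4.49 in resistant cells. The log2 ratio rose by 2.12 without overlap between the groups (exact permutation p = 0.1, adjusted 0.125, 3 libraries against 3). Expressed as a share of the ferritin FPKM, FTL made up 49.4 ± 3.99% in the parental and 80.9 ± 0.781% in the resistant cells (SD, n = 3 each). The summed ferritin level went from 281 ± 16.8 to 427 ± 27.5 FPKM, again without overlap and at the smallest exact permutation p of 0.1 for 3 against 3.

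**Figure D2:**
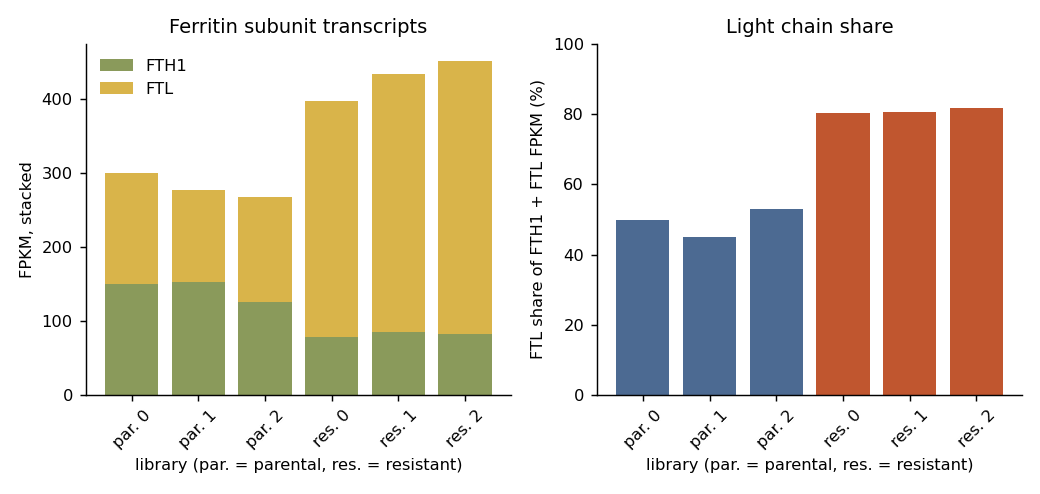
Ferritin subunit transcripts by library. The left panel stacks the FPKM of FTH1 and FTL, and the right panel gives the share of FTL in their sum in percent, which lies between 45.1 and 53.1% in the parental and between 80.4 and 81.8% in the resistant libraries.

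Both subunits have many processed pseudogenes, with which short reads can be shared, so that the division of reads among the copies is uncertain. The table holds 25 pseudogene rows of FTH1 and 16 of FTL. Their summed level was between 2.69 and 5.46% of FTH1 and between 0.316 and 3.01% of FTL in the 6 libraries, and adding them to the parent genes left the difference in the log2 ratio at 2.08. The most abundant of these rows, FTLP14, was between 0.745 and 3.31 FPKM, and the next, FTH1P16, FTH1P3, FTH1P6 and FTH1P15, did not exceed 1.97 FPKM. BEST1, the other gene in the locus given for FTH1, was between 0.643 and 1.96 FPKM.

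NCOA4, the cargo receptor that delivers ferritin to the lysosome, did not pass the threshold. On chromosome 10 (46005088 to 46030623), it was at 60.4, 58.7 and 62.5 FPKM in the parental and at 59.0, 65.3 and 61.8 FPKM in the resistant libraries. The groups overlapped, and the log2 fold change was 0.03 with a 95% interval from −0.14 to 0.20 (adjusted p = 0.724 by limma and Benjamini-Hochberg). Since FTH1 fell, the level of NCOA4 per FTH1 went from 0.403, 0.386 and 0.498 to 0.758, 0.773 and 0.752, a rise of the log2 ratio by 0.84 without overlap (exact permutation p = 0.1, adjusted 0.125, 3 against 3). The ratio of TFRC to FTH1, in contrast, overlapped between the groups, at 1.29, 1.38 and 1.84 in the parental and 1.29, 1.40 and 1.36 in the resistant libraries (exact permutation p = 0.6, 3 against 3). The difference in the log2 ratio was −0.14.

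HMOX1, the inducible heme oxygenase that frees iron from heme, had the largest log2 fold change in size among the 10 genes. On chromosome 22 (35380361 to 35394214), it was at 15.3, 13.1 and 19.1 FPKM in the parental and at 3.01, 3.30 and 3.32 FPKM in the resistant libraries. The resistant libraries were close to each other and well below the parental ones. The mean fell from 15.8 ± 3.02 to 3.21 ± 0.172 FPKM (SD, n = 3 each), which is a log2 fold change of −2.25 (SE 0.17, adjusted p = 1.43e-04 by limma and Benjamini-Hochberg).

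Of the iron regulatory proteins, IREB2 passed the threshold and ACO1 did not, while both had all resistant values above the parental ones. ACO1 encodes a protein that is a cytosolic aconitase when it holds an iron-sulfur cluster and binds RNA when it does not, and it lies on chromosome 9 (32384603 to 32454769). Its values were 12.6, 13.8 and 13.4 FPKM in the parental and 14.5, 14.7 and 16.2 FPKM in the resistant libraries. The resistant values were all slightly higher, but the log2 fold change of 0.19 (95% interval −0.05 to 0.43) did not pass the threshold (adjusted p = 0.172 by limma and Benjamini-Hochberg). It passed with median-ratio scaling of the libraries, at 0.29 and an adjusted p of 0.0428, a scaling that moved the median of all genes from −0.05 to 0.05.

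IREB2 encodes a regulatory protein without aconitase activity that is degraded when iron is plentiful. On chromosome 15 (78437431 to 78501453), it was at 37.8, 26.1 and 35.9 FPKM in the parental and at 48.4, 53.1 and 61.2 FPKM in the resistant libraries. It rose, with all resistant values above the parental ones, from 33.3 ± 6.28 to 54.2 ± 6.45 FPKM (SD, n = 3 each), which is a log2 fold change of 0.71 (SE 0.17, adjusted p = 0.0137 by limma and Benjamini-Hochberg). Without resistant replicate 2, the highest library, the log2 fold change was 0.62 and the adjusted p 0.0532. The ratio of IREB2 to ACO1 was 2.996, 1.89 and 2.68 in the parental and 3.34, 3.60 and 3.77 in the resistant libraries, a difference of 0.53 on the log2 scale without overlap (exact permutation p = 0.1, adjusted 0.125, 3 against 3). FBXL5, the ligase subunit that senses iron and marks IREB2 protein for degradation, was named here after its values were seen. It had a log2 fold change of 0.12 (adjusted p = 0.489 by limma and Benjamini-Hochberg), from values of 20.1, 21.4 and 21.5 FPKM to 23.6, 19.1 and 26.4 FPKM.

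HAMP encodes hepcidin, the liver hormone that removes the iron exporter from the cell surface, and lies on chromosome 19 (35280716 to 35285143). Its listed values were 0.291, 0 and 0.142 FPKM in the parental and 0.128, 0.126 and 0 FPKM in the resistant libraries. How many reads stand behind these values is not known, since the transcript length used for this gene is not given in the sources used here. The groups overlapped, and the 95% interval of the log2 fold change reached from −1.95 to 1.37 (adjusted p = 0.760 by limma and Benjamini-Hochberg). HAMP and TFR2 are otherwise known from the liver, and a list of 8 hepatocyte genes was set beside them. Its summed level was 3.67 to 4.80 FPKM in the parental and 50.6 to 58.8 FPKM in the resistant libraries. The marker counts that follow are read against 22.1% higher and 22.3% lower among all genes. Of the 5 hepatocyte genes tested, 1 was higher and 1 lower. The higher one was albumin (ALB), which was at 0.357, 0 and 0.582 FPKM in the parental and at 57.0, 53.9 and 49.5 FPKM in the resistant libraries. Transthyretin (TTR) fell, from 1.99, 1.77 and 1.16 FPKM to 0.388, 0.163 and 0.0907 FPKM, and APOB and FGB were listed at 0 in all 6. Of the 4 erythroid markers tested, 2 were higher and 1 lower. HBA2 was listed at 0 in the parental and at 18.7, 17.2 and 15.96 FPKM in the resistant libraries, and HBA1 was higher as well, at a mean of 6.68 FPKM in the resistant cells. EPOR, the erythropoietin receptor, fell from 8.48, 8.05 and 7.99 FPKM to 5.05, 5.16 and 4.92 FPKM, and ALAS2 and GYPB were listed at 0 in all 6. The erythroid list summed to 8.10 to 9.59 FPKM and 28.1 to 31.0 FPKM. The macrophage list summed to between 0.145 and 1.45 FPKM over the 6 libraries, with none of its 4 tested genes called. The fibroblast list summed to between 8.04 and 15.0 FPKM, with 2 of 5 tested genes higher and 1 lower. Of these, DCN was listed at 0 in the parental and at 3.63, 3.78 and 4.35 FPKM in the resistant libraries, and PDGFRB fell from 1.39, 3.55 and 1.38 FPKM to 0.241, 0.0331 and 0.216 FPKM. What part these differences have in the TFR2 result was not tested.

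**Figure D3:**
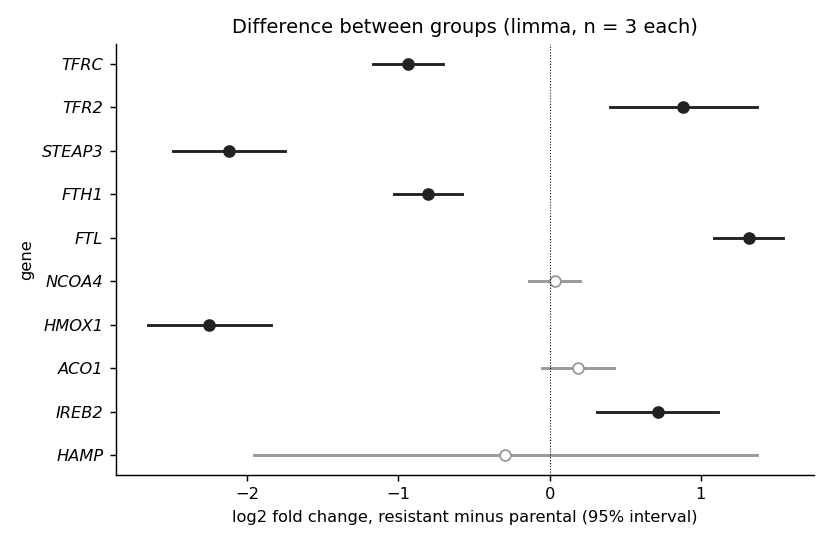
Log2 fold change of the 10 iron genes, resistant minus parental, from the limma fit of log2(FPKM + 0.1), with 95% intervals and 3 libraries per group. Filled points passed an adjusted p of 0.05. HMOX1 and STEAP3 lie near −2, FTL is the highest, and the intervals of NCOA4, ACO1 and HAMP include 0.

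The transcripts known to carry an iron-responsive element did not share a direction in the resistant cells. Of 10 such genes, 9 were tested, with 3 higher and 2 lower, counts that are read against 22.1% higher and 22.3% lower among all genes. Beside FTL, SLC40A1 and SLC11A2 were higher, and beside FTH1, TFRC was lower. SLC40A1 encodes ferroportin, the exporter of iron, and was at 1.71, 0.432 and 1.05 FPKM in the parental and at 6.80, 6.34 and 10.4 FPKM in the resistant libraries. It rose by 2.91 on the log2 scale (SE 0.47, adjusted p = 0.00326 by limma and Benjamini-Hochberg), and by 2.12 with a pseudocount of 1 FPKM. SLC11A2, the divalent metal transporter that moves iron out of the endosome, rose from 56.8 ± 5.81 to 84.0 ± 5.43 FPKM (SD, n = 3 each), which is a log2 fold change of 0.57 (adjusted p = 0.00425 by limma and Benjamini-Hochberg). The motif was not found in its canonical transcript, nor in those of EPAS1 and CDC42BPA. EPAS1, the hypoxia factor, had a log2 fold change of 1.47 that did not pass the threshold (adjusted p = 0.0627 by limma and Benjamini-Hochberg). CDC14A and CDC42BPA had log2 fold changes of 0.02 and −0.29 that did not pass either, and ALAS2, the erythroid starter of heme synthesis, was listed at 0 in every library.

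A wider set of 58 other iron symbols, sorted by role, had 52 genes tested, of which 12 were higher and 19 lower in the resistant cells. Of those tested, 59.6% were called, against 44.4% of all genes, 22.1% as higher and 22.3% as lower. The median log2 fold change was −0.10 against −0.05 over all genes. With the filter raised from 0.1 to 1 FPKM, 16382 genes remained, of which 4214 were called higher and 4807 lower. That is a larger share than 44.4%, while the counts of the wider set were again 12 higher and 19 lower. These were not all the same genes. STEAP4, named after its values were seen, was called lower with the filter at 0.1 FPKM. Its means of 0.468 FPKM in the parental and 0.0572 FPKM in the resistant libraries fell below the raised filter. Whether the wider set exceeds genes of a like level was not tested. The same holds for the other lists read against all genes. Of the 11 uptake genes, 1 was higher and 6 were lower. Among the latter, SLC39A8, a carrier of zinc, manganese and iron, fell from 99.7 ± 9.47 to 46.1 ± 2.22 FPKM (SD, n = 3 each), which is a log2 fold change of −1.11. HFE, the hemochromatosis protein that binds the transferrin receptors, was at 4.49, 4.31 and 4.59 FPKM in the parental and at 0.693, 1.89 and 1.57 FPKM in the resistant libraries, a log2 fold change of −1.72. LCN2, a carrier of iron-binding siderophores, had a log2 fold change of −1.91. The metal carrier SLC39A14 and the ferrireductase STEAP2, named after their values were seen, had log2 fold changes of −0.90 and −0.45. All passed the threshold. STEAP2, at means of 208 FPKM in the parental and 153 FPKM in the resistant cells, was far above STEAP3 in both. STEAP1, also named after its values were seen, did not pass, at means of 93.0 and 94.1 FPKM.

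The counts in the following lists are read against 22.1% higher and 22.3% lower among all genes. In the export list, 3 of 7 genes were tested and 2 were higher. Next to SLC40A1 this was CP, ceruloplasmin, the ferroxidase that works with ferroportin. It was at 0.684, 0.378 and 0.909 FPKM in the parental and at 2.42, 4.73 and 4.31 FPKM in the resistant libraries, without overlap. Its log2 fold change was 2.38, and 1.52 with a pseudocount of 1 FPKM. In the list of storage, iron chaperones and heme breakdown, 6 of 7 genes were tested, with 1 higher and 2 lower. HMOX2, the constitutive heme oxygenase, fell as well, from 49.7 ± 6.18 to 23.6 ± 2.73 FPKM (SD, n = 3 each), which is a log2 fold change of −1.07. The genes named as biliverdin reductases differed in direction. BLVRB fell from 160 ± 6.86 to 72.7 ± 1.19 FPKM, by 1.14 on the log2 scale. BLVRA, named after its values were seen, rose by 0.82 on the log2 scale. In the regulation list 2 of 6 genes were higher and 2 lower. NFE2L2, the transcription factor known to induce HMOX1 and the ferritin genes, was named after its values were seen and fell by 0.97 on the log2 scale, to a mean of 18.1 FPKM (adjusted p = 0.00211 by limma and Benjamini-Hochberg).

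Of the heme genes, 2 of 12 tested were higher and 5 lower, where 22.1% of all genes were higher and 22.3% lower. Ferrochelatase (FECH), which inserts iron into heme and was named after its values were seen, had a log2 fold change of −0.90. FLVCR2, a membrane carrier related to the heme exporter FLVCR1, was at 4.06, 30.0 and 1.35 FPKM in the parental and at 81.6, 89.4 and 83.0 FPKM in the resistant libraries. The parental libraries differed widely from each other, with replicate 1 the highest, and the log2 fold change of 3.90 had a standard error of 1.02 (adjusted p = 0.0215 by limma and Benjamini-Hochberg). It was 5.11 without parental replicate 1 and 2.92 without parental replicate 2. The call was lost without parental replicate 0 or without any of the 3 resistant libraries, with adjusted p values up to 0.0703.

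In the mitochondrial list of iron import and iron-sulfur cluster assembly, 4 of 14 genes were higher and 4 lower. Among all genes, 22.1% were higher and 22.3% lower. NFU1 and BOLA3, late factors that pass clusters to target enzymes, rose from 10.1 ± 2.76 to 30.5 ± 2.06 FPKM and from 27.9 ± 3.22 to 67.9 ± 4.601 FPKM (SD, n = 3 each). Their log2 fold changes were 1.62 and 1.29.

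**Figure D4:**
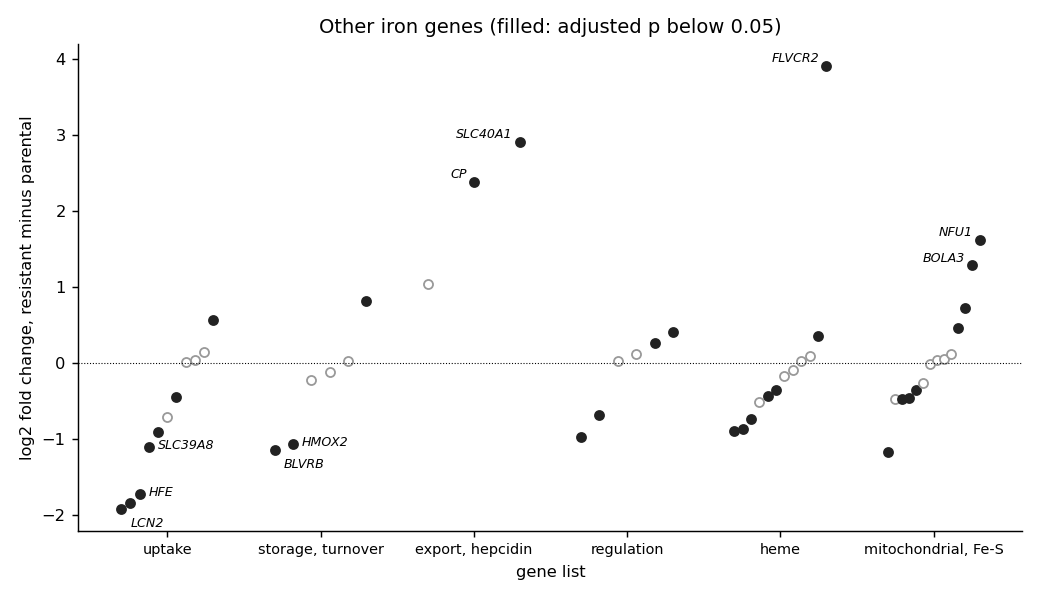
Log2 fold change, resistant minus parental, of the 52 tested genes of the wider iron lists, by role on the horizontal axis. Filled points passed a limma adjusted p of 0.05, and labelled genes are among those called with a log2 fold change of at least 1 in size and a mean of at least 1 FPKM. Most called uptake genes lie below 0, and SLC40A1 and CP of the export list lie above 2.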

How the data were processed

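Single-end reads of 50 bp were trimmed by the authors with TrimGalore 0.4.3, aligned with STAR 2.5.3 to GRCh38 with GENCODE v25, and summarized with Cufflinks 2.2.1. The submitters' processing notes list other trimming tools and a mouse build, which the human gene identifiers go against. The deposited table gives an FPKM value for each gene and library. It names no unit, FPKM was taken from the methods, and further scaling by the authors is not given in the sources used here. It holds no counts, so no count test or counting interval was made. Depth was estimated from genes with 1 transcript of 600 to 8000 bases, assuming fragments of 200 bases. Between 38.4 and 54.4% of the low values lay within 0.1 of a whole read, so that reads were not recovered.

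All 24468 genes whose mean reached 0.1 FPKM were compared on log2(FPKM + 0.1) with limma 3.58.1 in R 4.3.3 (mean-variance trend, all 6 libraries, no covariates, two-sided, Benjamini-Hochberg adjustment over all genes tested, threshold 0.05). Fold changes are on this scale, which understates changes of low genes. Ratios of genes within a library were compared with exact permutation tests. Positions and sequences came from GENCODE v44. The fit was tested on simulated data. Python 3.11.15 was used for all other steps. The iron genes and lists were chosen with earlier results of these data known. Named were the 10 genes, other iron genes called with a log2 fold change of at least 1 in size and a mean of at least 1 FPKM, the transcripts with an iron-responsive element, the 5 most abundant ferritin pseudogenes, and genes marked as named later. Some genes that this rule names are not reported here. No pair of libraries held identical values. Replicate numbers did not pair the libraries: deviations of same-numbered libraries from their group means had correlations of 0.0080, 0.0165 and −0.0030 across genes. Alternatives covered the pseudocount, the filter, the scaling, short non-coding RNAs, the variance trend, a replicate block and each library left out.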

Additional observations from a re-analysis of the deposited data

How the results depend on the processing

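TFRC, TFR2, FTH1, FTL, HMOX1 and STEAP3 kept their direction and passed the threshold under all 15 alternatives, with the log2 fold change of FTL between 1.24 and 1.43 and that of FTH1 between −0.89 and −0.65. ACO1 passed with median-ratio scaling (0.29), which moved the median log2 fold change of all genes from −0.05 to 0.05. With each library left out, IREB2 ranged from 0.55 to 0.82 and lost its call without resistant replicate 2 (0.62), NCOA4 ranged from −0.0035 to 0.069 (−0.0035 without resistant replicate 1), and HAMP ranged from −0.83 to 0.10 (0.10 without resistant replicate 2). NCOA4 moved most with the scaling, to 0.14 with median-ratio scaling and 0.15 with quantile normalization. It passed under no alternative, with a lowest adjusted p of 0.0698 by limma and Benjamini-Hochberg. HAMP could not be fitted where its mean fell below the filter. The TFRC to FTH1 log2 ratio difference lay between −0.24 and 0.0156 (the latter without parental replicate 2), and the STEAP3 to TFRC difference was −0.91 with a pseudocount of 1 FPKM. With the replicate number as a block, the fit gave 3 higher and 4 lower iron genes of the 10, 11 and 16 of the wider set, and 4670 and 4793 of all genes. The block changed no call among the 10 genes, and the libraries of the 2 groups did not correlate best with their own number in every case. Counts of called genes stayed within 1.5 times under all alternatives. The table holds no counts, so the depth behind low genes such as HAMP is not known.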
